A study of Mus musculus with 10 samples.

Results

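The 10 genes described here serve chloride and bicarbonate secretion by intestinal crypts, the guanylin pathway that regulates it, and the absorptive sodium and chloride exchange of the villus. They were taken by name, with earlier results of these data known. Cftr, Kcnq1, Kcne3 and Slc4a4 stand for secretion, Guca2a, Guca2b and Gucy2c for the guanylin pathway, and Slc26a3, Slc26a6 and Slc9a3 for exchange. All 10 were among the 14719 genes tested, of 54838 genes listed. RNA had been sequenced from jejunal crypts of 5 WT mice and 5 Arid3a cKO mice, 1 animal per library. The cKO animals were VillinCre-ERT2+/−; Arid3a fl/fl, in which tamoxifen activates a Cre recombinase that the Villin promoter restricts to the intestinal epithelium, so that Arid3a is deleted there and not in the stroma. Animals of both genotypes had received tamoxifen for 3 days and were killed 1 month after its first dose, and the villi had been scraped off before the crypts were released. Whether the WT animals carried the Cre transgene, and the age of the animals, were not given in the sources used here. The identifiers of the animals fell into one series for WT and another for cKO. How the WT and cKO animals were related was not given, so a difference of origin, if any, and genotype cannot be told apart.

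In the crypt, chloride enters the cell across the basolateral membrane with sodium and potassium through NKCC1 and leaves through the apical channel CFTR, while the basolateral potassium channel formed by KCNQ1 and KCNE3 recycles potassium and keeps the driving force. The peptides guanylin (Guca2a) and uroguanylin (Guca2b) are released into the lumen and bind guanylate cyclase C (Gucy2c), whose product cGMP leads to the opening of CFTR and to inhibition of the sodium-proton exchanger NHE3. On the villus, NHE3 works beside the chloride-bicarbonate exchangers DRA and PAT1 to absorb salt, and water follows.

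The libraries held between 27050455 and 31053622 expected counts, and each of the 10 genes was counted at least 305 times in every library. Levels are given as CPM, counts scaled to library sizes that the TMM method of edgeR had normalized, with factors from 1.00 to 1.08 for WT and from 0.934 to 0.986 for cKO. Arid3a itself ranged from 1.91 to 2.75 CPM in WT animals and from 0.303 to 1.17 CPM in cKO animals, so every library matched its label. Among 11 lists of cell type markers, also chosen with earlier results known, all 8 enterocyte markers were higher by the test described in the next paragraph. Their sum was taken in TPM, a unit in which counts are also divided by transcript length. It ranged from 1445 to 6803 over WT animals and from 6911 to 13014 over cKO animals. Only a narrow gap, between WT replicate 2 and cKO replicate 3, kept these ranges apart. Taken singly in CPM, 4 of the 8 markers were higher without overlap between the genotypes, against 12.0% of all genes tested. The 6 Paneth cell markers, which mark the base of the crypt, were abundant, with sums from 31420 to 47623 TPM over WT and from 19049 to 27142 TPM over cKO animals, and 5 of 6 were lower by the test. Defa24 made up most of these sums, with means of 25037 TPM in WT and 16086 TPM in cKO crypts. None of the Paneth or enterocyte markers was at 0 in every library.

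Genotypes were compared by the quasi-likelihood method of edgeR, with Benjamini-Hochberg (BH) adjustment over all genes tested and a threshold of 0.05. By this test 6 of the 10 genes were higher and 1 was lower in cKO crypts. Over all genes tested, 28.3% passed this threshold, 15.6% higher and 12.7% lower. In CPM the groups did not overlap in 5 of the 10 genes with higher cKO values and in 1 with lower cKO values, against 19.6% of all genes, 12.0% with higher and 7.63% with lower cKO values. The median log2 fold change of the 10 genes was 0.41, and that of all genes tested was −0.03. By role, all 3 exchange genes rose with a median of 1.34, the guanylin genes had 2 of 3 higher with a median of 0.41, and the secretion genes had 1 of 4 higher and 1 of 4 lower with a median of −0.04. In bulk crypts, a difference in the number of cells of a type and a difference in the RNA per cell cannot be told apart. Scaling by library size only shifted the median of all genes tested to −0.16 and the calls over all genes to 10.5% higher and 27.4% lower, and limma on log2(TPM + 1) to −0.10 with 9.65% higher and 18.6% lower. These scales changed the calls of Kcnq1, Slc4a4 and Gucy2c, given with each gene.

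**Figure D1:**
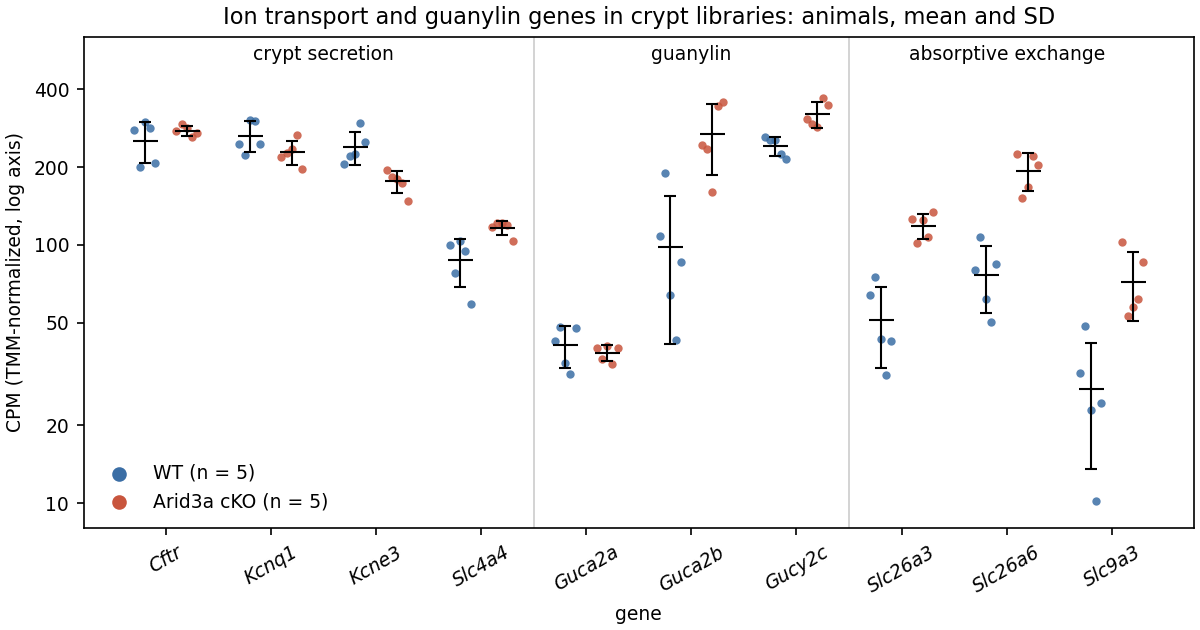
CPM of the 10 genes in each library on a log axis, with 1 point per animal, the mean as a wide bar and the SD as whiskers (n = 5 per genotype), grouped by role. The cKO points of Slc26a3, Slc26a6, Slc9a3, Gucy2c and Slc4a4 lie above all WT points, those of Kcne3 lie below them, and those of Cftr, Kcnq1, Guca2a and Guca2b overlap with WT.

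Start-site sequence is shown for both ligand genes, which lie next to each other on the chromosome but did not move alike, and for Slc26a3 and Slc9a3, which rose. RefSeq windows of GRCm38.p6, from 250 bases before to 50 bases after a start, were at hand for 8 of the 10 genes, in 10 windows. Gucy2c and Kcnq1 had no window in the table. The start used for Slc26a3 lies inside the longer span that the annotation of the counts gives the gene. Each window was searched on both strands for GTTAAT, a half-site of HNF1, for CAAAGTCCA, a site of HNF4, for TTTATG, a site of CDX factors, and for ATTAAA, a core of the ARID3A motif. The 150 bases before the start are printed 5′ to 3′ on the strand of the gene, with matches in capitals, for Guca2a (chr4:119637582-119637731, plus strand), Guca2b (chr4:119658946-119659095, minus strand), Slc26a3 (chr12:31438069-31438218, plus strand) and Slc9a3 (chr13:74121263-74121412, plus strand).
Guca2a: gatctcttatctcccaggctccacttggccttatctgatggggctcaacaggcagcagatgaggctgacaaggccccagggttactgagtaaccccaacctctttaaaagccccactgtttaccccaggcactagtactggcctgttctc
Guca2b: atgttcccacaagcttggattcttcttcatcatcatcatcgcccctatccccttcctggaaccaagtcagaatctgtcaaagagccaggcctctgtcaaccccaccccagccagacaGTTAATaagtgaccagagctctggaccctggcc
Slc26a3: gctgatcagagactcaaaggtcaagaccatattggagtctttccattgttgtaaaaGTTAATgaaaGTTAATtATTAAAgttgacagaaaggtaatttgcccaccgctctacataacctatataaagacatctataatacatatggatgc
Slc9a3: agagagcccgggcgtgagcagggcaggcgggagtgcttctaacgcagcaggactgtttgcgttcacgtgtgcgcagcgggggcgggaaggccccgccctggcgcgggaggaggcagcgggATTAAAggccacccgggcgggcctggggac
The window of Guca2b held 1 GTTAAT, which began 33 bases before the start. That of Slc26a3 held 2 copies, beginning 94 and 84 bases before the start, and an ATTAAA at 77 bases. This ATTAAA followed the second GTTAAT after 1 base, and differs from ATTAAC, the reverse complement of GTTAAT, in the last letter only. An ARID3A match and a part of an HNF1 site thus cannot be told apart there. The window of Slc9a3 held an ATTAAA at 30 bases, and the windows of Guca2a, Cftr, Kcne3, Slc4a4 and Slc26a6 held none of the 4 motifs. Of these, Slc26a6 and Slc4a4 also rose, and their sequence is not printed. Among 32851 windows of all genes, 7.10% held GTTAAT, 0.475% held CAAAGTCCA, 11.9% held TTTATG and 13.9% held ATTAAA. The motifs were chosen after the windows had been read, and a match is a run of letters, not a shown binding site.

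Of the 4 secretion genes, Cftr, which encodes the apical chloride channel (chr6:18170687-18322768 of GRCm38, plus strand), was measured at 278, 200.4, 298, 283 and 207 CPM in WT replicates 1 to 5 and at 275, 295, 283, 262 and 270.4 CPM in cKO replicates 1 to 5. The cKO animals lay close together inside the range of the WT animals, of which replicates 2 and 5 were low. The mean of 253 ± 45.8 CPM for WT stood against 277 ± 12.5 CPM for cKO crypts (SD, n = 5 each). The log2 fold change was 0.13 ± 0.11 (SE), its 95% interval ran from −0.11 to 0.37, and edgeR gave a BH-adjusted p of 0.399. Under scaling by library size only the sign turned, at −0.005.

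Kcnq1, the pore-forming subunit of the basolateral potassium channel (chr7:143106362-143427042, plus strand), stood at 246, 224, 305, 301 and 247 CPM in WT and at 218, 227, 234, 265 and 197 CPM in cKO libraries. Replicates 1 and 5 of cKO lay below every WT animal, and the other cKO animals lay inside the WT range. The log2 fold change was −0.21 ± 0.10 (SE), its 95% interval ran from −0.43 to 0.01, and edgeR gave a BH-adjusted p of 0.141. It passed the threshold under scaling by library size only, at −0.34 with a BH-adjusted p of 0.0331 in edgeR.

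Kcne3, the beta subunit that holds the KCNQ1 channel open (chr7:100176502-100184869, plus strand), was the one gene of the 10 that fell. It stood at 206, 222, 225, 296 and 250.0 CPM in WT and at 195, 183, 181, 174 and 149 CPM in cKO libraries. Even the highest cKO animal, replicate 1, was below the lowest WT animal, also replicate 1. The mean went from 240 ± 35.2 to 176 ± 17.3 CPM (SD, n = 5 for both), which is a log2 difference of −0.44 ± 0.10 (SE; BH-adjusted p = 0.00842, edgeR), and this call held in all 20 alternative fits. The levels of Paneth cell markers given above were lower in the same libraries, 3 of 5 stem cell markers passed the test as lower (summed 2397 to 4439 TPM in WT and 1796 to 2900 TPM in cKO, none at 0 in every library), and so did 2 of 5 cycling cell markers (587 to 730 against 434 to 493 TPM, none at 0). Olfm4 made up most of the stem cell sum, with means of 3153 TPM in WT and 1931 TPM in cKO crypts. Lgr5 (log2 fold change −0.17) and Slc12a2 (−0.27) did not pass the test. The part of these cell types in the value of Kcne3 was not tested.

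Within a library, the log2 ratio of Kcne3 to Kcnq1 was −0.25, −0.01, −0.44, −0.03 and 0.02 in WT and −0.16, −0.31, −0.37, −0.61 and −0.41 in cKO crypts. The groups overlapped, with means of −0.14 ± 0.20 and −0.37 ± 0.16 (SD, n = 5 each). The difference of −0.23 missed the threshold in a two-sided exact permutation test (p = 0.0794, also 0.0794 after Benjamini-Hochberg adjustment over 4 ratios), and it passed only without WT replicate 3, at −0.30.

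Slc4a4, the basolateral sodium-bicarbonate cotransporter NBCe1 that loads the cell with bicarbonate for secretion (chr5:88886818-89239653, plus strand), stood at 99.6, 78.2, 103.8, 94.997 and 59.1 CPM in WT and at 117, 121, 121, 120 and 103.9 CPM in cKO libraries. The groups did not overlap in CPM, but only by the narrow gap between WT replicate 3 and cKO replicate 5. In TPM they overlapped, at 9.68 to 20.02 over WT and 16 to 20.17 over cKO animals. The mean rose from 87.1 ± 18.5 to 117 ± 7.28 CPM (SD, n = 5 each), or by 0.42 ± 0.13 (SE) on the log2 scale, with a BH-adjusted p of 0.0323 in edgeR. This call was lost without WT replicate 2 (0.39) or without cKO replicate 1 (0.42), 2 (0.41), 3 (0.41) or 4 (0.41), with limma on TPM (0.24 with a pseudocount of 1) and when libraries were scaled by size only (0.29). Antisense genes overlap exons of Cftr (Gm15592), Kcnq1 (Kcnq1ot1) and Kcne3 (Gm34821). Since the strand setting of the counting was not stated, their reads cannot be told apart from the sense genes. The counts given to the antisense genes came to at most 0.163%, 0.844% and 0.918% of the counts of these 3 genes. These shares do not bound the antisense reads that may have been counted to the sense genes.

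**Figure D2:**
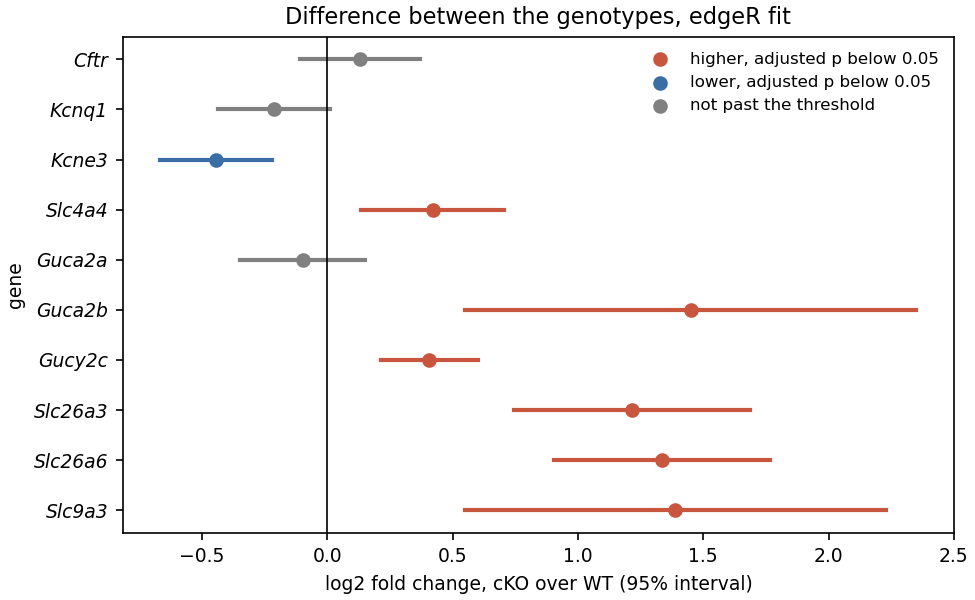
Log2 fold change of cKO over WT crypts for the 10 genes, with the 95% interval of edgeR's fit as a line and the color giving the call. The intervals of Cftr, Kcnq1 and Guca2a include 0, while those of the 3 exchange genes start at 0.74, 0.91 and 0.55.

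In the guanylin pathway the ligand genes parted. Guca2a (chr4:119637704-119639471, plus strand) encodes guanylin and stood at 42.4, 48.3, 35.0, 31.5 and 47.6 CPM in WT and at 40.0, 36.1, 40.7, 34.5 and 39.97 CPM in cKO libraries. The cKO animals lay within the range of the WT animals. The log2 fold change was −0.10 ± 0.12 (SE), its 95% interval ran from −0.35 to 0.15, and edgeR gave a BH-adjusted p of 0.551.

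Guca2b, the gene of uroguanylin, lies 17135 bases from the end of Guca2a on the other strand (chr4:119656607-119658954). It stood at 108, 190.3, 64.1, 43.0 and 85.8 CPM in WT and at 245, 235, 161, 344 and 358 CPM in cKO libraries. All cKO animals but replicate 3 lay above every WT animal, and WT replicate 2 was far above the other WT animals. From a WT mean of 98.3 ± 56.9 CPM it rose 2.73-fold in the fit, to 269 ± 82.3 CPM in cKO crypts (SD, n = 5 each), or by 1.45 ± 0.40 on the log2 scale (SE; BH-adjusted p = 0.0253, edgeR). This was the largest log2 fold change among the 10 genes and also the one with the largest standard error. The call was lost without WT replicate 3 (1.33) or 5 (1.41), without cKO replicate 4 (1.35) or 5 (1.32) and without a filter on low counts (1.44), and the value was 1.84 without WT replicate 2.

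The log2 ratio of Guca2b to Guca2a within a library was 1.34, 1.97, 0.86, 0.44 and 0.84 in WT and 2.60, 2.69, 1.97, 3.30 and 3.15 in cKO crypts. Only cKO replicate 3 reached down to a WT library, that of replicate 2. The means were 1.09 ± 0.58 and 2.74 ± 0.52 (SD, n = 5 each), and the difference of 1.65 passed the threshold in a two-sided exact permutation test (p = 0.0159, 0.0317 after Benjamini-Hochberg adjustment over 4 ratios), as it did with any 1 animal left out.

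Gucy2c, the receptor of both peptides (chr6:136697284-136781765, minus strand), stood at 262, 254, 254, 225 and 214 CPM in WT and at 306, 293, 286, 372 and 348 CPM in cKO libraries. In CPM every cKO animal was above every WT animal, and cKO replicates 4 and 5, which were also highest for Guca2b, were highest here. In TPM the groups overlapped, at 65.4 to 90.4 over WT and 88.1 to 123.8 over cKO animals. The mean rose from 242 ± 20.8 to 321 ± 37.2 CPM (SD, n = 5 each), or by 0.41 ± 0.09 (SE) on the log2 scale, with a BH-adjusted p of 0.00661 in edgeR. With limma on log2(TPM + 1) the value was 0.30 and the adjusted p, 0.0549, missed the threshold. Downstream, Prkg2, the cGMP-dependent kinase of the epithelium, rose by 0.71 on the log2 scale, from 44.9 ± 6.40 to 73.3 ± 6.58 CPM (SD for 5 animals each). Pde5a, which degrades cGMP, differed by 0.11 on the log2 scale (edgeR BH-adjusted p = 0.414), and Abcc4, an exporter of cyclic nucleotides, by −0.60 (edgeR BH-adjusted p = 0.0507).

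**Figure D3:**
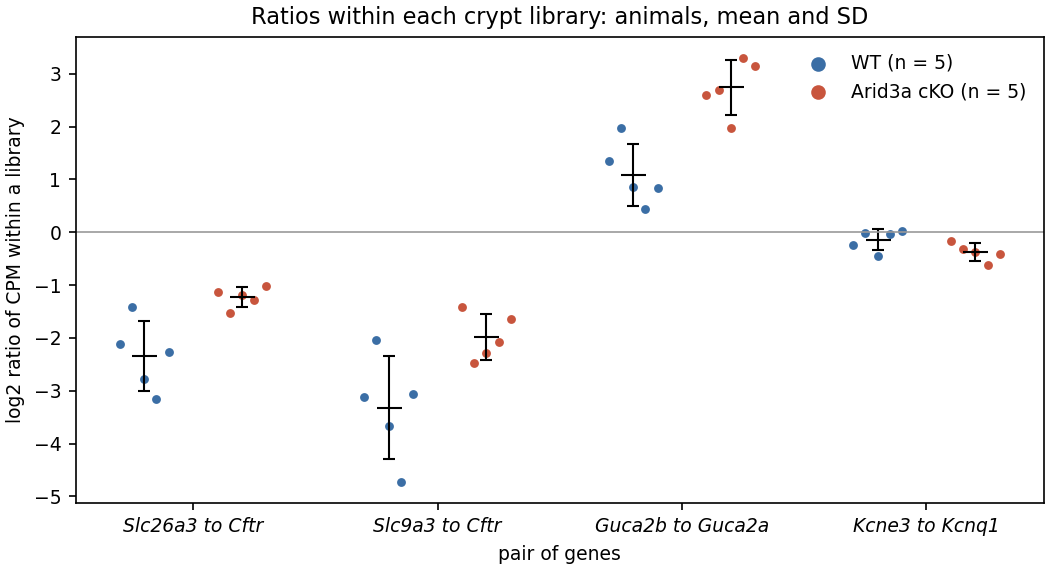
Log2 ratio of the CPM of 2 genes within each library for 4 pairs, with 1 point per animal and the mean and SD (n = 5 per genotype). The pairs Slc26a3 to Cftr, Slc9a3 to Cftr and Guca2b to Guca2a were higher in cKO crypts by 1.12, 1.34 and 1.65, and Kcne3 to Kcnq1 differed by −0.23 with groups that overlap.

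All 3 exchange genes rose without overlap between the genotypes. Slc26a3, the apical chloride-bicarbonate exchanger DRA (chr12:31390871-31473917, plus strand), stood at 63.7, 74.9, 43.3, 31.3 and 42.6 CPM in WT and at 126, 102, 125, 108 and 134 CPM in cKO libraries. WT replicate 4 was lowest and WT replicate 2 highest among the WT animals. The mean rose from 51.2 ± 17.7 to 119 ± 13.4 CPM (SD, n = 5 for both), which is a log2 difference of 1.22 ± 0.21 (SE; BH-adjusted p = 0.00333, edgeR).

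Slc26a6, the exchanger PAT1 of the small intestine (chr9:108853283-108913049, plus strand), stood at 80.3, 107, 61.6, 50.1 and 84.4 CPM in WT and at 224, 151, 168, 221 and 204 CPM in cKO libraries. The same WT animals, replicates 4 and 2, were lowest and highest. The mean rose from 76.7 ± 22.0 to 194 ± 32.5 CPM (SD, n = 5 each), or by 1.34 ± 0.20 (SE) on the log2 scale, with the smallest BH-adjusted p of the 10 genes, 0.00150 in edgeR. The calls of Slc26a3 and Slc26a6 held in all 20 alternative fits.

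Slc9a3, which encodes the sodium-proton exchanger NHE3 (chr13:74121457-74169442, plus strand), stood at 31.8, 48.4, 23.0, 10.2 and 24.3 CPM in WT and at 103, 52.8, 57.4, 61.6 and 85.9 CPM in cKO libraries. The groups did not overlap, though cKO replicate 2 was close to WT replicate 2. The mean rose from 27.6 ± 14.0 to 72.1 ± 21.4 CPM (SD, n = 5 for both), which is a log2 difference of 1.39 ± 0.37 (SE; BH-adjusted p = 0.0228, edgeR). The call was lost without WT replicate 3 (1.33) or 5 (1.35), without cKO replicate 1 (1.23) or 5 (1.31) and without a filter on low counts (1.38).

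Absorptive exchange was then set against crypt secretion by ratios within a library, which do not move with its scaling. The log2 ratio of Slc26a3 to Cftr was −2.11, −1.41, −2.77, −3.16 and −2.27 in WT and −1.13, −1.53, −1.18, −1.28 and −1.02 in cKO crypts. Only WT replicate 2 reached into the cKO range. The difference between the means of −2.34 ± 0.66 and −1.23 ± 0.19 (SD, n = 5 each) was 1.12 and passed the threshold (two-sided exact permutation test, p = 0.0159, 0.0317 adjusted over 4 ratios). The log2 ratio of Slc9a3 to Cftr was −3.11, −2.04, −3.67, −4.72 and −3.07 in WT and −1.42, −2.47, −2.29, −2.08 and −1.65 in cKO crypts. Here too WT replicate 2 lay inside the cKO range. The difference of 1.34 had an exact permutation p of 0.0317 (0.0423 adjusted over 4 ratios), but it passed the threshold in only 3 of the 10 tests that each left out 1 animal, with values from 0.99 without WT replicate 4 to 1.66 without WT replicate 2.

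The level of enterocyte markers moved with several of these genes from animal to animal. The order of the libraries by Guca2b in TPM, from low to high, was WT replicates 4, 3, 5, 1 and 2 and cKO replicates 3, 2, 1, 5 and 4, which was the order of the summed enterocyte markers in both genotypes. Slc26a6 and Guca2a followed that order in WT and Gucy2c followed it in cKO crypts. As a description chosen after the values were seen, Guca2b was divided by these markers. Per 1000 TPM of markers it came to 60.5 to 81.4 TPM over WT and 54.4 to 67.0 TPM over cKO animals. The same quantity ran from 21.2 to 45.9 over WT and from 18.9 to 29.9 over cKO animals for Slc26a6, and from 5.01 to 11.4 against 3.81 to 7.81 for Slc26a3. For Slc9a3 it ran from 1.94 to 3.12 over WT and from 1.29 to 2.60 over cKO animals. The ranges of the genotypes overlapped on this scale for these genes, and they also did for Cftr (5.96 to 44.8 over WT and 4.02 to 7.91 over cKO animals), Slc4a4 (1.95 to 13.4 and 1.24 to 2.78) and Gucy2c (12.1 to 56.0 and 8.22 to 12.7). They did not overlap for Guca2a (17.9 to 61.1 and 6.88 to 14.1), Kcnq1 (14.0 to 100.02 and 6.20 to 13.8) and Kcne3 (41.1 to 289.6 and 13.6 to 31.65). Overlap on this scale was thus seen for Cftr, which did not pass the test of genotype, as well as for the genes that were higher in cKO crypts. The part of enterocyte number in the rise of any of these genes was not tested.

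**Figure D4:**
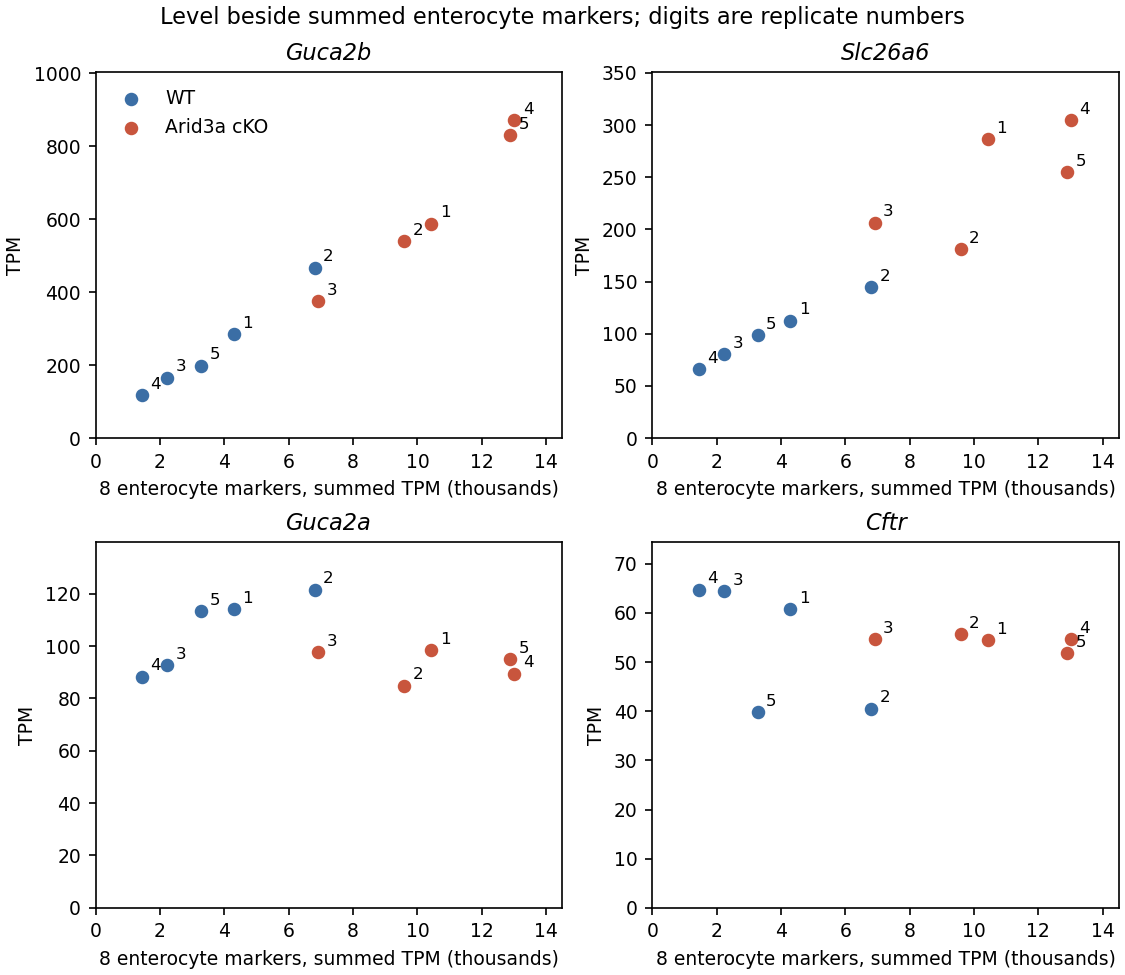
TPM of Guca2b, Slc26a6, Guca2a and Cftr in each library (vertical axes) beside the summed TPM of 8 enterocyte markers in units of 1000 (horizontal axes), with replicate numbers beside the points. Guca2b follows the order of the markers in both genotypes, and Slc26a6 follows it in WT but not in cKO crypts. Guca2a follows it in WT, while Guca2a and Cftr have overlapping ranges that do not follow the markers across genotypes.

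Per transcript length, in TPM, the order of the 10 genes changed between the genotypes. In WT crypts Kcne3 (308 ± 62.3 TPM) and Guca2b (247 ± 138 TPM) were highest and Slc9a3 (8.17 ± 3.65 TPM) lowest. The ranges of neighbors in that order overlapped except between Gucy2c (81.1 ± 9.50 TPM) and Cftr (54.0 ± 12.8 TPM) and between Cftr and Slc26a3 (24.2 ± 7.70 TPM). In cKO crypts Guca2b (641 ± 208 TPM) stood alone at the top, followed by Slc26a6 (247 ± 52.3 TPM) and Kcne3 (213 ± 23.1 TPM), whose ranges overlapped. Gucy2c (101 ± 14.9 TPM), Kcnq1 (94.9 ± 13.5 TPM) and Guca2a (93.1 ± 5.79 TPM) followed without separation. Cftr (54.3 ± 1.42 TPM) and Slc26a3 (51.6 ± 5.70 TPM) then overlapped, where they had been apart in WT crypts, and Slc9a3 (19.2 ± 5.14 TPM) and Slc4a4 (18.5 ± 1.59 TPM) closed the order (SD, n = 5 throughout).

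By the root mean square difference of centered log2 CPM over the 10 libraries, the genes nearest to Cftr were Hipk3 (0.04), Atp8b1 (0.04) and Apc (0.05), where Cftr itself varied by 0.19 around its own mean. Nearest to Guca2a, which varied by 0.19, were Dpm3 (0.08), Mtfmt (0.10) and Ankrd54 (0.10). Nearest to Guca2b, which varied by 0.98, were Plpp1 (0.13), Naaladl1 (0.14) and Cyp4f14 (0.14).

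A list of 48 other genes of ion and water transport and its signaling was examined by role. Of 42 tested, 16 were higher and 4 lower, against 15.6% and 12.7% of all genes tested, and their median log2 fold change was 0.07. The number of lower genes was 10 when libraries were scaled by size only and 7 with limma on log2(TPM + 1). Slc26a9, Slc26a4, Scnn1b, Scnn1g, Prkg1 and Pde10a did not pass the filter on low counts and were not tested. On the basolateral side, Slc12a2, the gene of NKCC1 and also one of the 5 stem cell markers, averaged 954 ± 284 CPM over WT and 792 ± 105 CPM over cKO animals (SD, n = 5 each, log2 fold change −0.27, 95% interval −0.68 to 0.15, edgeR BH-adjusted p = 0.309). Atp1b1, a beta subunit of the sodium pump, rose from 1038 ± 142 to 1674 ± 120.3 CPM (SD, n = 5 each), by 0.69 on the log2 scale, and the potassium channel Kcnk5 (log2 fold change 0.59) rose, while the calcium-activated potassium channel Kcnn4 fell by 0.47 on the log2 scale. Atp1b3 (−0.19) did not pass the test.

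Among other chloride transporters, Ano1, a calcium-activated chloride channel, fell by 0.98 on the log2 scale, from 3.11 ± 0.823 to 1.58 ± 0.421 CPM (SD, n = 5 each), and the channel gene Clcn2 (log2 fold change 0.49) and the sulfate transporter gene Slc26a2 (log2 fold change 0.51) rose. For bicarbonate, the cotransporter Slc4a7 rose from 74.1 ± 12.6 to 207 ± 48.2 CPM (SD, n = 5 each), by 1.48 on the log2 scale (edgeR BH-adjusted p = 5.16e-04). The carbonic anhydrase Car12 fell by 0.71 on the log2 scale, and Car2 and Car4 had log2 fold changes of 0.81 and 0.67 with BH-adjusted p of 0.0731 and 0.188 in edgeR.

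On the absorptive side, the second apical sodium-proton exchanger Slc9a2 rose (log2 fold change 0.79), whereas Slc9a8 (0.06) and Scnn1a (−0.08) did not pass the test. Of 4 genes of PDZ scaffolds that bind NHE3 and CFTR, Slc9a3r1 rose by 1.10 on the log2 scale, from 195 ± 75.0 to 418 ± 73.3 CPM (SD, n = 5 each), Pdzk1 (log2 fold change 1.86) and Pdzd3 (log2 fold change 0.84) rose as well, and Slc9a3r2, at 2.60 ± 0.297 CPM in WT, fell by 0.84 on the log2 scale. Among 8 genes of cAMP and calcium signaling, only Adora2b, an adenosine receptor, rose (log2 fold change 1.34, from 1.33 to 3.36 CPM), and Vipr1, a receptor of vasoactive intestinal peptide, averaged 257 ± 13.8 CPM over WT and 269 ± 27.1 CPM over cKO animals (SD, n = 5 each, log2 fold change 0.07, 95% interval −0.10 to 0.23). Of 4 kinase genes that regulate cotransporters, Oxsr1 rose by 0.17 on the log2 scale and Wnk1 (−0.15), Wnk4 (−0.22) and Stk39 (−0.19) did not pass the test. Of 5 aquaporin genes, Aqp3 (log2 fold change 1.64), Aqp7 (2.12) and Aqp11 (0.81) rose, and Aqp1 (−0.22) and Aqp4 (−0.40) did not pass the test.

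**Figure D5:**
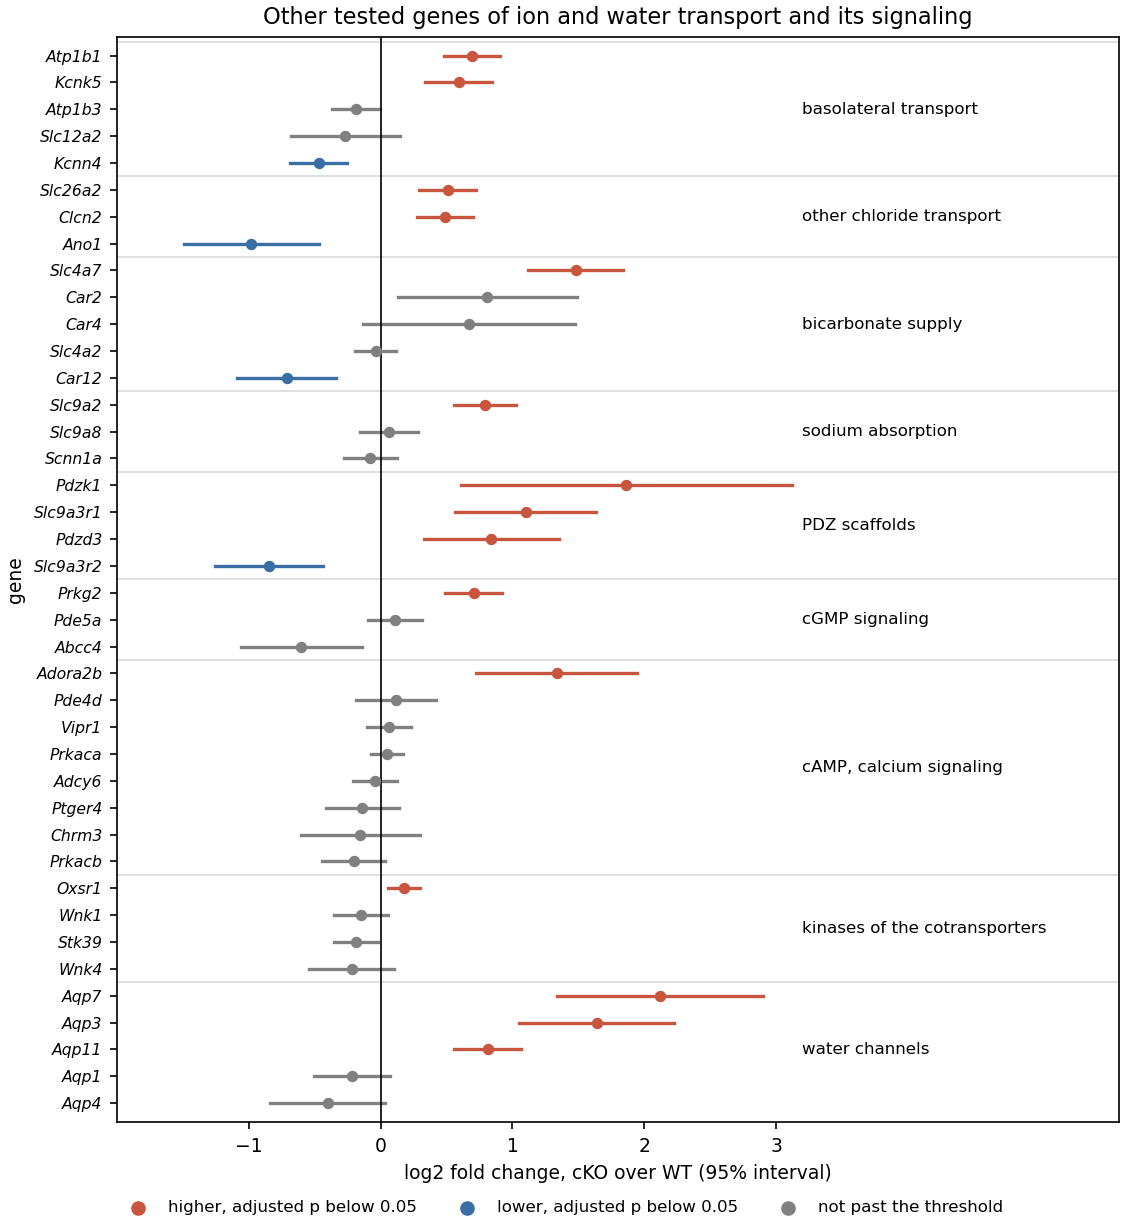
Log2 fold change of cKO over WT crypts for 40 of the 42 tested genes of ion and water transport and its signaling, sorted by role, with the 95% interval of edgeR's fit as a line and the color giving the call. The lines of 15 genes lie to the right of 0 in the color for higher and 4 lie to the left in that for lower.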

How the data were processed

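RNA was measured in crypt libraries of 5 WT and 5 Arid3a cKO animals, grouped by the genotype and replicate number in the labels. Reads had been aligned with STAR and quantified with RSEM against an Ensembl annotation of GRCm38. The authors deposited the expected count and the TPM of each gene per library, unfiltered, and left the expected counts unnormalized. RSEM divides reads that match several genes, so expected counts need not be whole. The strand setting was not given in the sources used here.

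After rounding of the expected counts, edgeR 4.0.16 under R 4.3.3 was used (filterByExpr by genotype, minimum count 10 and minimum total count 15, TMM, robust quasi-likelihood test, Benjamini-Hochberg adjustment over 14719 genes, threshold 0.05). Every gene was tested on the whole table, and intervals and standard errors are those of this fit. The study used DESeq2, which served as an alternative. The 4 ratios were log2 ratios of CPM with a pseudocount of 0.5, compared by two-sided exact permutation tests over 252 assignments, whose smallest p is 0.00794. With 1 animal left out the smallest p is also 0.00794. Totals of 27050455 to 31053622 counts make counting error small for the 10 genes beside the spread between animals.

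Alternatives were DESeq2 1.42.0, RLE size factors, scaling by library size alone, unrounded counts, testing without a filter or with a minimum of 10 counts per library, limma-voom and limma 3.58.1 on log2(TPM + 1) and log2(TPM + 0.1), on which scale the change of low genes is understated, the replicate number as a block, and each animal left out in turn. The replicate numbers did not pair the animals. All 10 genes were named in full. Of the 48 other transport genes, those past the threshold and those a sentence on their role needed were named. The counts include 2 tested genes whose values are not reported here. For Cftr, Guca2a and Guca2b the 3 tested genes with the smallest root mean square difference of centered log2 CPM were named. The 10 genes and all lists were chosen with earlier results of these data known. Of the methods used, only the edgeR fit of genotype was tested on simulated counts.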

Additional observations from a re-analysis of the deposited data

Results flagged for a closer look

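Slc4a4 in cKO replicate 5, at 103.9 CPM, stood apart below the other 4 cKO animals, of which the lowest was at 117 CPM. The gap made up 0.779 of the range of the group, above Dixon's 95% critical value of 0.71 for 5 samples. It was the only such value among 28 groups of 5 animals examined, and chance alone marks about 1 group in 20.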

How the results depend on the processing

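Kcne3, Slc26a3 and Slc26a6 were called in all 20 alternative fits, and the number of the 10 genes called higher stayed between 4 and 6. Under scaling by library size only the number called lower was 2, since Kcnq1 passed, 10 of the other transport genes were lower, and Cftr turned to a log2 fold change of −0.005. Limma on log2(TPM + 1) and on log2(TPM + 0.1) gave 7 lower transport genes each. Over all genes, 4167 calls became 4823 under DESeq2 and 5571 under library size only, and between 3007 (without WT replicate 4) and 4684 (without WT replicate 2) with 1 animal left out. Without 1 animal, the log2 ratio of Slc26a3 to Cftr ranged from 0.92 to 1.35, Slc9a3 to Cftr from 0.99 to 1.66, Guca2b to Guca2a from 1.49 to 1.87 and Kcne3 to Kcnq1 from −0.30 to −0.17. The log2 fold change ranged from 1.26 to 1.84 for Guca2b, from 1.18 to 1.69 for Slc9a3 and from 0.33 to 0.49 for Slc4a4. Where a call was lost, the cause was not tested.

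Animals with the same replicate number did not deviate together (correlations of −0.16, −0.04, 0.13, −0.14 and −0.15, and 0 of 5 WT libraries correlated best with their own number), so the numbers gave no pairing. With the replicate number as a block, 3052 genes were called and Guca2b, at 1.56 on the log2 scale, missed the threshold (edgeR, adjusted p = 0.0594). Paired by replicate block in a sign-flip test, the ratios of 1.12 for Slc26a3 to Cftr, 1.34 for Slc9a3 to Cftr and 1.65 for Guca2b to Guca2a each had an adjusted exact p of 0.167, in a design of 32 assignments whose smallest p is 0.0625. With 5 animals per genotype, the intervals above limit what can be said of Cftr, Kcnq1 and Guca2a.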

Other observations

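The remaining marker lists give the makeup of the libraries beside the 10 genes. Of 8 goblet cell markers 1, Spdef, was lower, and they summed to between 3257 and 5499 TPM in WT and between 4121 and 4900 TPM in cKO libraries. Of 6 enteroendocrine markers 2 were higher (371 to 480.3 against 438 to 605 TPM), and of 5 tuft cell markers 3 were higher (40.0 to 50.5 against 44.9 to 56.9 TPM). None of 6 stromal markers was called (2.82 to 41.4 against 3.74 to 50.7 TPM), none of 5 immune markers (293 to 526 against 70.5 to 301 TPM), and neither of the 2 tested smooth muscle markers (0.30 to 1.20 against 0.13 to 0.65 TPM). Cd74 made up most of the immune sum, with means of 312 TPM in WT and 147 TPM in cKO crypts. Of 3 colonocyte markers, Car1 was at 0 in every library and both tested genes, Aqp8 and Slc37a2, were higher (3.25 to 6.90 against 10.7 to 29.6 TPM).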
